A study of Mus musculus with 16 samples.

Results

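Alveolar type 2 (AT2) cells of Sftpc mutant mouse lungs that carried CD44 on their surface were compared with AT2 cells of such lungs that did not. The comparison takes 8 of the 16 RNA sequencing libraries of the series, chosen by the names of the count table's columns: 4 OG CD44+ libraries and 4 OG CD44- libraries, paired by the animal number in the name (animals 3, 5, 6 and 7). Values per library are given in that order of animals throughout. Both groups have the genotype text SP-C Mutant, the treatment text OG TMX, lung as tissue and AT2 as cell type. The other 8 libraries, R26 CD44+ and R26 CD44- with 4 animals each, have the genotype text SP-C WT and the same treatment text, and enter only the last comparison here. No label spells out the prefixes: OG is read as mutant because the comparison was set up that way, and the differences between CD44+ and CD44- cells within OG do not depend on that reading. The labels do not say what the Sftpc mutation is, what drives it, how OG TMX was given, or the age, sex or strain of the mice. Cells were sorted as live, without surface CD45, CD31 or CD104, with Epcam and with high CD200, before the split by CD44. The series addresses how CD44+ and CD44- AT2 cells differ in fibrosis.

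AT2 cells are the cuboidal cells of the alveolus that make, store and recycle pulmonary surfactant, and they also divide and give rise to the flat alveolar type 1 (AT1) cells across which gas is exchanged. On the way they pass through a transitional state known for keratin 8, claudin 4 and other junction and wound genes. CD44 is a surface receptor for hyaluronan, a sugar polymer of the matrix between cells. Mutations in Sftpc, the gene of surfactant protein C, can misfold its proprotein, load the secretory pathway and the proteasome of AT2 cells, and are a known cause of fibrotic lung disease.

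The OG CD44+ libraries held 11237147 to 13596733 counts and the OG CD44- libraries 11489364 to 21363816, so that the floor of 3 counts lies at or below 0.267 CPM (counts relative to the library's total, the total scaled with TMM, the trimmed mean of M-values) in each. An identifier with no symbol (100861531) took 10.4% to 11.8% of the counts in OG CD44+ libraries and 6.001% to 7.41% in OG CD44- libraries, and mitochondrial genes took 2.06% to 2.35% in OG CD44+ libraries and 1.54% to 1.84% in OG CD44- libraries. The first principal component separated the groups and held 79.4% of the variance. The second held 6.6% and set the OG CD44+ library of animal 3 apart, at -29.4 against 10.8 to 11.9 for the other OG CD44+ libraries. The OG CD44+ libraries of animals 5, 6 and 7 were also unusually alike in immunoglobulin transcripts, whose V segments are joined differently in each B cell and its descendants. The chi-square of their V segment counts per degree of freedom was 1.22 to 1.37 over 119 to 123 segments, where 1 is sampling noise alone. It was 8.93 to 9.13 for their pairs with animal 3, 0.771 to 3.05 among OG CD44- libraries and 13.1 to 74.9 among R26 CD44+ libraries. The OG CD44- pairs rest on only 7 to 29 segments, with 368 to 960 V segment counts per library, so they could show less difference. The segment Igkv19-93 had 101 to 129 counts in each of the 4 OG CD44+ libraries (482 of 36017 V segment counts) and 0 of 2485 in the OG CD44- libraries. Over all genes the OG CD44+ libraries of animals 5, 6 and 7 differed beyond sampling noise (1.66 to 3.27). That cannot show whether they are separate mice, because separate libraries of the same cells can also differ beyond sampling noise. Each was kept as a sample by its animal number. The common coefficient of variation between libraries beyond sampling noise was 0.0493 in the main fit. Nothing in the labels says that these libraries share cells, and the source of the likeness was not tested. The p-values below measure the spread between these libraries, which may be smaller than the spread between separate mice. The comparison was therefore repeated without animal 3, and with animals 5, 6 and 7 summed into 1 library per sort, and values from these are given beside the results that they change most. In the summed comparison most lists had fewer called members.

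Most expressed genes differed between the sorts, most of them by little. Of 14581 genes tested, 8457 (58.0%) were called at an adjusted p under 0.05 in edgeR's quasi-likelihood test with the animal as a block: 4374 (30.0%) were higher in OG CD44+ cells and 4083 (28.0%) were lower. A list of genes is therefore read against these shares and against the median of all genes tested, a log2 fold change of -0.004. Of the called genes, 62.1% differed by less than 1.5-fold, and the large differences ran mostly one way: 1656 were at least 2-fold higher and 182 at least 2-fold lower in OG CD44+ cells. In 8015 called genes (94.8%) all 4 animals showed the direction of the call. The values of the groups did not overlap in 7120 of the 8457 called genes, so a lack of overlap is common among them. With animals 5, 6 and 7 summed, 3310 genes were higher and 2944 lower, and 5979 of the 8457 calls were kept in the same direction. In bulk RNA, fewer cells of one type and less RNA per cell cannot be told apart, and this holds for every level below.

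**Figure D1:**
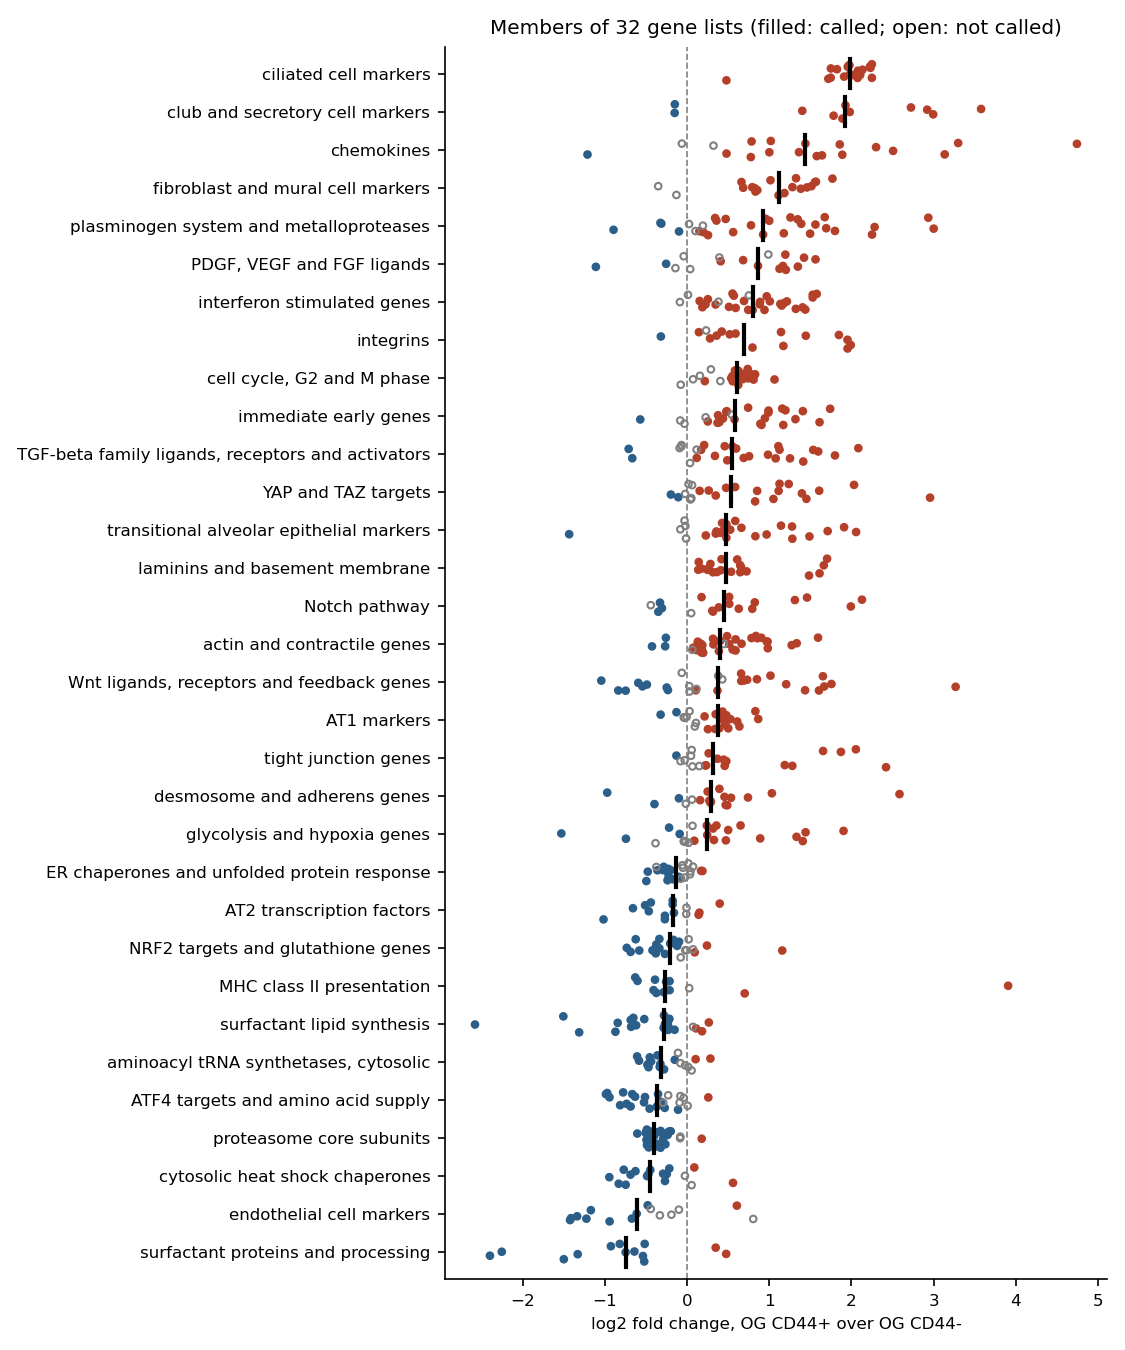
Log2 fold change, OG CD44+ over OG CD44-, of every tested member of 32 gene lists (1 dot per gene, black bar at the list's median, dashed line at 0, filled dots called by edgeR). The ciliated, club, fibroblast and chemokine lists lie to the right with medians of 1.98, 1.93, 1.11 and 1.44, and the surfactant, heat shock and proteasome lists to the left with medians of -0.75, -0.45 and -0.41.

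The RNA of the sorting antigens separated as the sort did for CD44, and also for antigens that both sorts were gated on alike. Cd44 (gene 12505, chromosome 2, 102811141 to 102901669 in mm10) stood at 989.7, 1007, 964 and 954 CPM in OG CD44+ libraries, against 609, 553, 581 and 563 CPM in OG CD44- libraries (log2 fold change 0.76 ± 0.03, adjusted p = 2.7e-22). All OG CD44+ values lie above all OG CD44- values. Itgb4, which encodes the CD104 used to leave cells out, stood at 94.9, 101, 103 and 106 CPM in OG CD44+ libraries, against 25.1, 28.2, 23.8 and 25.1 CPM in OG CD44- libraries, a log2 fold change of 1.99 ± 0.05. Cd200, required at a high level on both sorts, went the other way with 88.6, 80.4, 81.7 and 84.1 CPM in OG CD44+ libraries, against 123, 123, 129 and 129 CPM in OG CD44- libraries (log2 fold change -0.59 ± 0.04), again with no overlap. Epcam, an epithelial adhesion molecule, was higher in OG CD44+ cells by 0.46 ± 0.03 on the log2 scale. Ptprc, which encodes the leukocyte antigen CD45, stood low at 9.44, 4.08, 4.42 and 4.198 CPM in OG CD44+ libraries, against 1.36, 1.46, 0.734 and 1.3997 CPM in OG CD44- libraries. Pecam1, which encodes the endothelial antigen CD31, was at 1.89 to 8.63 CPM in OG CD44+ and 3.95 to 5.41 CPM in OG CD44- libraries, which overlap (log2 fold change -0.44 ± 0.46, adjusted p = 0.476). The highest OG CD44+ value is that of animal 3, without which the log2 fold change was -1.08 (adjusted p = 1.47e-06).

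AT2 genes were abundant in both sorts and lower in OG CD44+ cells. Sftpc, the gene named by the genotype (gene 20389, chromosome 14, 70520941 to 70524081), stood at 6221, 7300.1, 7625 and 7497 CPM in OG CD44+ libraries, against 11393, 11924, 12290.0 and 12326 CPM in OG CD44- libraries (log2 fold change -0.75 ± 0.03, adjusted p = 1.34e-21). The values of the groups do not overlap, and animal 3 has the lowest value of each group. Of 13 tested genes for surfactant proteins and their processing, 11 fell and 2 rose, with a median log2 fold change of -0.75. Sftpa1, the gene of the collectin surfactant protein A, fell to 2545, 2794, 2732 and 2800.5 CPM in OG CD44+ libraries, against 7300.1, 7825, 7865 and 7739.6 CPM in OG CD44- libraries. Its log2 fold change was -1.499 ± 0.03, and that of Lamp3, a membrane protein of the lamellar bodies that store surfactant, was -1.33 ± 0.03. Slc34a2, the phosphate carrier of the AT2 apical membrane, fell by 0.93 on the log2 scale and Sftpd, the gene of surfactant protein D, by 0.82. The lysozyme genes of AT2 cells fell further. Lyz2 stood at 1214, 1154, 1152 and 1108 CPM in OG CD44+ libraries, against 5044, 5779, 5612 and 5664 CPM in OG CD44- libraries (log2 fold change -2.25 ± 0.04), and Lyz1 had a log2 fold change of -2.40 ± 0.05. Lyz1 and Lyz2 are close copies, so the split of reads between them is uncertain. The members that rose were Ctsh, a cathepsin that trims surfactant proproteins, with 0.48 ± 0.03, and Hopx, a homeobox cofactor known as an AT1 gene, with 0.35 ± 0.04.

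Surfactant is mostly phospholipid, and the genes for its synthesis followed: of 24 tested, 20 fell and 3 rose, with a median of -0.27. Acoxl, an acyl-CoA oxidase relative, had the smallest fold change of all genes named by size, with 15.4, 14.6, 12.8 and 14.4 CPM in OG CD44+ libraries, against 74.5, 90.3, 90.2 and 87.6 CPM in OG CD44- libraries (log2 fold change -2.58 ± 0.07, adjusted p = 3.82e-25). Ppp1r14c fell by 1.31 on the log2 scale, the fatty acid elongase Elovl1 by 0.87, the desaturase Scd1 by 0.69 and Acly, which makes cytosolic acetyl-CoA, by 0.68. The members that rose were led by Plin2, which coats lipid droplets, with 0.27 ± 0.04, and Sqle of the sterol pathway with 0.18 ± 0.05. The call of Sqle was lost with animals 5, 6 and 7 summed (adjusted p = 0.108 in edgeR), where 1 member of the list rose and 18 fell. Among 15 transcription factors of AT2 cells, 10 fell and 3 rose, or 9 and 1 with animals 5, 6 and 7 summed. Etv5, an Ets factor needed to keep the AT2 state in mice, stood at 249.6, 275, 273 and 282 CPM in OG CD44+ libraries, against 555, 543, 543 and 539 CPM in OG CD44- libraries (log2 fold change -1.02 ± 0.03). Nkx2-1, the lineage factor of lung epithelium, differed much less, at -0.27 ± 0.03, as did Foxp1 at -0.27 ± 0.04. Tfcp2l1 and Elf5 fell by 0.51 and 0.66 on the log2 scale, and Elf3, an Ets factor of epithelia more widely, rose most, with 0.40 ± 0.05.

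The 15 largest decreases, a set picked by size from this same comparison, were those of Acoxl, Lyz1, Lyz2, the surface peptidases Anpep and Mme, Phf24, the neuritin gene Nrn1, Itih4, Hc, the chitinase Chia1 and its inactive relative Chil1, the glycolytic gene Pgk1, Sftpa1, Cth and Il33. Hc, the gene of complement component 5, stood at 562, 586, 551 and 537 CPM in OG CD44+ libraries, against 1799, 1887, 1867 and 1811 CPM in OG CD44- libraries (log2 fold change -1.72 ± 0.03). Il33, an alarmin cytokine kept in the nucleus of AT2 cells, stood at 147, 119, 118 and 118 CPM in OG CD44+ libraries, against 341, 333, 349 and 339.8 CPM in OG CD44- libraries (log2 fold change -1.44 ± 0.05). Only genes whose groups do not overlap entered this set, so the separation of both genes was fixed by that rule. Mme, the neprilysin gene, had a log2 fold change of -1.67 ± 0.06 and Anpep, the aminopeptidase N gene, one of -2.17 ± 0.11. Of 23 surface peptidases and ectoenzymes 12 fell and 6 rose, so the list had no common direction. Cpm, a carboxypeptidase, and Entpd1, which splits extracellular ATP, fell by 0.94 and 0.99 on the log2 scale, while Nt5e, which makes adenosine from AMP, rose by 0.86 ± 0.04 and the peptidase Ace by 1.18 ± 0.05.

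**Figure D2:**
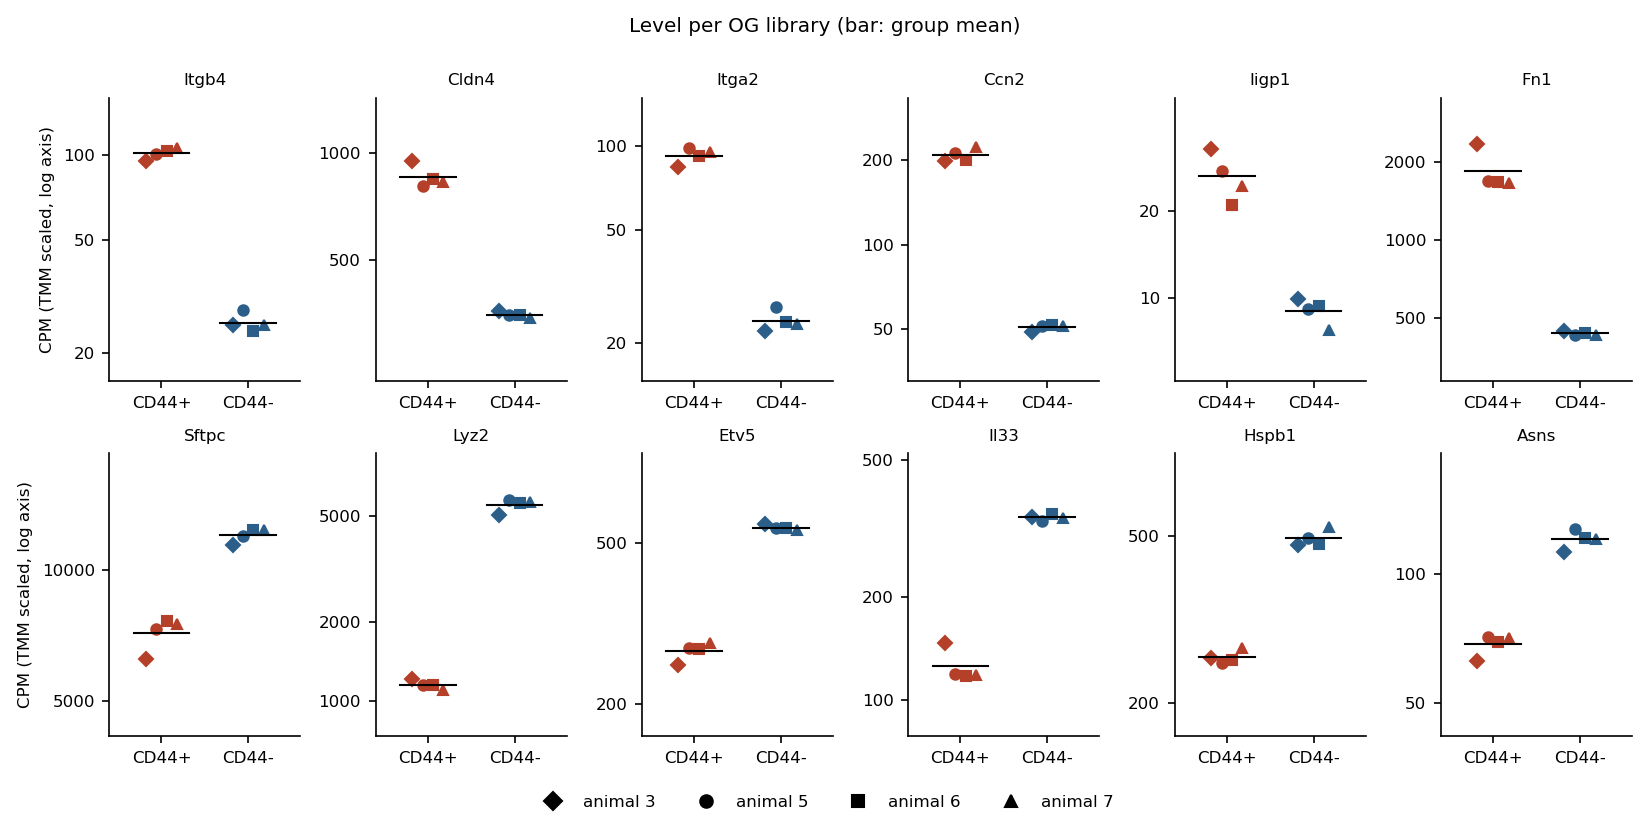
Level in each library (CPM after TMM scaling, log axis) of 12 genes, with the 4 OG CD44+ libraries left of the 4 OG CD44- libraries in each panel, points marked by animal and a bar at the group mean. Itgb4, Cldn4, Itga2, Ccn2, Iigp1 and Fn1 lie higher in every OG CD44+ library, and Sftpc, Lyz2, Etv5, Il33, Hspb1 and Asns lower.

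Markers of the transitional alveolar state were higher in OG CD44+ cells: of 26 tested, 21 rose and 1 fell, with a median log2 fold change of 0.48. Markers of ciliated and club cells rose as well, as given below. How much of the transitional, keratin, AT1 and junction differences comes from RNA of such airway cells was not tested. Cldn4, a claudin of tight junctions (gene 12740, chromosome 5, 134945123 to 134946934), stood at 950.3, 808, 843 and 830.3 CPM in OG CD44+ libraries, against 362, 352, 351 and 345 CPM in OG CD44- libraries (log2 fold change 1.28 ± 0.03, adjusted p = 6.57e-29). Krt19 stood at 664, 707, 709 and 679 CPM in OG CD44+ libraries, against 442, 440.0, 439.8 and 422 CPM in OG CD44- libraries, a difference of 0.66 ± 0.03. Krt7 and Krt18 rose by 0.83 and 0.59 on the log2 scale, and Krt8, the keratin the state is named for, by 0.41 ± 0.04, with 441 to 484 CPM in OG CD44+ and 321 to 367 CPM in OG CD44- libraries. Clu, the clusterin gene, rose by 0.97 ± 0.03 and Tnip3, an inhibitor of NF-kappaB signalling, by 1.71 ± 0.05. Sprr1a, a small proline-rich protein gene that wounded and transitional epithelium is known for, went against the list with 56.4, 77.1, 81.3 and 109.7 CPM in OG CD44+ libraries, against 199, 182, 250.1 and 237 CPM in OG CD44- libraries (log2 fold change -1.43 ± 0.16, adjusted p = 0.00495). Its adjusted p was 0.0633 with animals 5, 6 and 7 summed. AT1 markers rose in 16 of 24, with Scnn1g, a sodium channel subunit, at 0.87 ± 0.04 and Ahnak at 0.53 ± 0.03, and fell in 2. Ager, which marks mature AT1 cells, was not called (adjusted p = 0.476), at 1437 to 1610 CPM in OG CD44+ and 1448 to 1633 CPM in OG CD44- libraries. Of the list's falling members, Rtkn2 had a log2 fold change of -0.32 ± 0.05 and Aqp5, the water channel, one of -0.13 ± 0.04.

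Genes that hold epithelial cells to each other and to their basement membrane rose together. Of 20 tight junction genes 13 rose and 1 fell, and of 18 desmosome and adherens genes 13 rose and 3 fell. Cdh1, the E-cadherin gene, had a log2 fold change of 0.47 ± 0.03, its partner Ctnnd1 one of 0.49 ± 0.03, the desmosomal cadherin Dsg2 one of 1.03 ± 0.07 and the tight junction adaptor Cgn one of 0.46 ± 0.04. Cdh16, a cadherin of polarised epithelia, fell by 0.97 on the log2 scale, Nectin1 by 0.40 and Ctnnb1, the beta-catenin gene, by 0.10, a call that was lost with animals 5, 6 and 7 summed (adjusted p = 0.108 in edgeR). Of 16 integrins 14 rose, 11 with animals 5, 6 and 7 summed, with a median of 0.69. Itga2, part of a collagen receptor (gene 16398, chromosome 13, 114833081 to 114932100), stood at 83.97, 98.5, 91.9 and 94.9 CPM in OG CD44+ libraries, against 21.9, 26.7, 23.6 and 23.3 CPM in OG CD44- libraries (log2 fold change 1.95 ± 0.05, adjusted p = 2.73e-28). Itgb3, which pairs with the alpha V chain to bind vitronectin and latent TGF-beta, had a log2 fold change of 1.95 ± 0.08, and Itga9 alone fell, by 0.32. All 20 tested laminin and basement membrane genes rose, with a median of 0.48. Among them the laminin-332 chain Lamb3 rose by 0.54 ± 0.03 and the type IV collagen genes Col4a5 and Col4a1 by 0.65 ± 0.04 and 0.32 ± 0.03. Of these genes 11 were called, all higher, with animals 5, 6 and 7 summed.

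The cytoskeleton moved the same way. Of 35 actin and contractile genes 30 rose (21 with animals 5, 6 and 7 summed) and 3 fell, with a median of 0.40: Actn1, an actin crosslinker, stood at 818, 872, 854 and 839.8 CPM in OG CD44+ libraries, against 452, 458, 448 and 448 CPM in OG CD44- libraries (log2 fold change 0.91 ± 0.03), and Actb and Cnn3 had log2 fold changes of 0.59 ± 0.03 and 1.59 ± 0.09. Tln2, Cdc42ep3 and Pdlim1 fell, by 0.43, 0.27 and 0.26. YAP and TAZ are coactivators that enter the nucleus of stretched or spread cells and work through TEAD factors, and of 24 genes listed as their targets or partners 16 rose and 2 fell, with a median of 0.53. Ccn2, a matricellular protein gene (gene 14219, chromosome 10, 24595442 to 24598683), stood at 198, 213, 201 and 223 CPM in OG CD44+ libraries, against 49.1, 51.4, 51.6 and 51.6 CPM in OG CD44- libraries (log2 fold change 2.03 ± 0.04, adjusted p = 1.69e-32). Ccn1, its relative, stood at 586, 567, 584 and 588 CPM in OG CD44+ libraries, against 198, 179.8, 185 and 199.8 CPM in OG CD44- libraries (log2 fold change 1.61 ± 0.03). No values of the groups overlap for either gene. F3, which encodes tissue factor, rose by 1.05 ± 0.04, Ajuba by 0.85 ± 0.04 and the receptor tyrosine kinase Axl by 1.45 ± 0.08, whereas Dock5 fell by 0.20. The TEAD core GGAATG, searched on both strands, stood in 7 of 12 promoter windows of the 11 rising members that have one (58.3%), against 14.7% of all 32851 windows. Ccn1 is shown because it is among the members named here and holds such a match. Its 250 bases before the gene's start (chr3:145649986-145650235, minus strand, GRCm38.p6, RefSeq) read as follows, written 5′ to 3′ on the gene's strand with the match, on the opposite strand, in capitals:

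Ccn1: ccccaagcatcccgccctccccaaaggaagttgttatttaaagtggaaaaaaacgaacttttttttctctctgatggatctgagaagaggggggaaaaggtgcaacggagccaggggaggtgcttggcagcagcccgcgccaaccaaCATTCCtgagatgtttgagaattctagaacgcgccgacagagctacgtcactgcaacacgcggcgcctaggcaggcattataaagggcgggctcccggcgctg

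The match starts 103 bases before the gene. A match describes the letters and is not a measured binding site.

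In several growth factor families, counted with receptors, activators and inhibitors as well as ligands, more genes rose than fell. Of 27 TGF-beta family ligands, receptors and activators 20 rose and 2 fell, with a median of 0.55. Tgfbi, a matrix protein gene that TGF-beta induces, stood at 75.5, 54.9, 58.9 and 56.8 CPM in OG CD44+ libraries, against 30.6, 23.8, 24.5 and 24.2 CPM in OG CD44- libraries (log2 fold change 1.25 ± 0.06, adjusted p = 3.58e-21). The groups do not overlap, and animal 3 has the highest value of each. The inhibitor Smad7 had a log2 fold change of 0.99 ± 0.05, the receptor Tgfbr1 one of 0.69 ± 0.04 and Thbs1, a thrombospondin that activates latent TGF-beta, one of 0.46 ± 0.03. Gdf11 and the receptor Acvr2b fell by 0.67 and 0.71. Of 17 PDGF, VEGF and FGF ligands and related factors 10 rose and 2 fell. Pdgfb, a mitogen for pericytes and fibroblasts, stood at 187, 163, 182 and 176 CPM in OG CD44+ libraries, against 81.9, 81.5, 72.1 and 73.7 CPM in OG CD44- libraries (log2 fold change 1.20 ± 0.04). Csf1, the growth factor of macrophages, stood at 37.04, 34.5, 35.9 and 36.1 CPM in OG CD44+ libraries, against 14.3, 15.2, 12.7 and 14.5 CPM in OG CD44- libraries (log2 fold change 1.35 ± 0.07). Angptl4 and Pdgfc rose by 1.13 ± 0.07 and 1.56 ± 0.24, and Fgf1 fell by 0.25. In this list 6 members were higher with animals 5, 6 and 7 summed. In the EGF family of ligands and receptors 8 of 13 rose and 1 fell, and the ligands Tgfa, Areg, Btc and Nrg2 were not called. Ereg, the epiregulin gene, had a log2 fold change of 1.28 ± 0.07 and Hbegf one of 0.43 ± 0.04, while Errfi1, a feedback inhibitor of the EGF receptor, fell by 0.39.

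Wnt genes went both ways. Of 29 tested 15 rose and 8 fell: the ligands Wnt7a, Wnt11, Wnt7b and Wnt5a rose, by 1.21 ± 0.07, 1.76 ± 0.12, 0.66 ± 0.05 and 1.61 ± 0.13, and the feedback genes Nkd1, Znrf3 and Notum fell, by 0.75, 0.54 and 1.04, with Lgr4, a receptor for R-spondins, lower by 0.84. Roles did not go one way: the ligand Wnt3a had a log2 fold change of -0.59 ± 0.15 and the feedback gene Nkd2 one of 1.44 ± 0.30, and of the frizzled receptors Fzd1 rose by 0.66 ± 0.06 and Fzd7 was at -0.25 ± 0.04. Nkd1 stood at 82.6, 88.7, 94.1 and 102 CPM in OG CD44+ libraries, against 149.7, 147, 162 and 157 CPM in OG CD44- libraries, with no overlap. In the Notch pathway 13 of 18 rose and 3 fell. Lfng, a glycosyltransferase that tunes Notch receptors, had a log2 fold change of 1.99 ± 0.15, Hes1, a Notch target, one of 0.63 ± 0.05, and Notch1 fell by 0.33. Among 39 semaphorins, ephrins and guidance genes 25 rose and 7 fell, led by the receptor Epha4 with 1.28 ± 0.04 and the ligand Efnb2 with 1.17 ± 0.07, while Nrp1, a coreceptor for semaphorins and VEGF, fell by 0.50.

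Of 19 tested chemokine genes 16 rose and 1 fell, with a median log2 fold change of 1.44. Ccl9 stood at 14.7, 18.7, 16.3 and 18.6 CPM in OG CD44+ libraries, against 2.72, 3.52, 2.71 and 3.07 CPM in OG CD44- libraries (log2 fold change 2.51 ± 0.12, adjusted p = 9.9e-20). Cxcl2, which draws neutrophils, stood at 17.3, 6.91, 7.15 and 8.48 CPM in OG CD44+ libraries, against 2.19, 1.54, 1.79 and 2.27 CPM in OG CD44- libraries (log2 fold change 2.30 ± 0.18), with the highest value in animal 3. Cx3cl1 rose by 1.002 ± 0.06 and Cxcl16 by 0.48 ± 0.04. Cxcl15, lungkine, which lung epithelium makes at high level in mice, was the exception, with 1468, 1604, 1544 and 1548 CPM in OG CD44+ libraries, against 3431, 3596, 3675 and 3564 CPM in OG CD44- libraries (log2 fold change -1.21 ± 0.03). Among 31 genes of the plasminogen system and the metalloproteases 24 rose and 4 fell, with Mmp14, a membrane collagenase, at 1.26 ± 0.04, Adam8, a sheddase, at 2.28 ± 0.07 and the inhibitor Timp2 at 0.78 ± 0.03. Adam19 fell by 0.89, Serpinb6b by 0.32 and Adamts1 by 0.31, the last not called with animals 5, 6 and 7 summed (adjusted p = 0.0722 in edgeR). Spp1, the osteopontin gene, whose protein is a ligand of CD44 and integrins, rose by 1.01 ± 0.04. It is listed with 28 genes of matrix crosslinking and hyaluronan, of which 19 rose and 4 fell. Of those 28, 12 were higher with animals 5, 6 and 7 summed.

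Of 31 tested interferon stimulated genes 27 rose and none fell, with a median log2 fold change of 0.80. Without animal 3, 26 rose and 1 fell, and with animals 5, 6 and 7 summed 21 rose and none fell. Iigp1, an immunity related GTPase, stood at 32.9, 27.5, 21.02 and 24.4 CPM in OG CD44+ libraries, against 9.89, 9.18, 9.36 and 7.73 CPM in OG CD44- libraries (log2 fold change 1.53 ± 0.09, adjusted p = 8.6e-17). Gbp2, a guanylate binding protein, stood at 26.5, 26.7, 24.02 and 19.9 CPM in OG CD44+ libraries, against 10.8, 8.24, 9.13 and 8.26 CPM in OG CD44- libraries (log2 fold change 1.41 ± 0.09). Irf7, a factor that amplifies interferon production, had a log2 fold change of 1.15 ± 0.10, the ligand Cxcl10 one of 1.58 ± 0.14 and Oasl2 one of 1.01 ± 0.09. MHC class II genes, which interferon gamma is known to induce, went the other way: of 12 tested 9 fell and 2 rose. H2-Aa stood at 244, 236, 252 and 259 CPM in OG CD44+ libraries, against 375, 365, 381 and 383 CPM in OG CD44- libraries (log2 fold change -0.60 ± 0.03), H2-Ab1 fell by 0.41 and H2-DMb1 by 0.63, and the members that rose were Ctss, a cathepsin, with 0.70 ± 0.13 and H2-Oa with 3.91 ± 0.59. MHC class I presentation had no common direction, with 5 of 20 higher and 2 lower. The core GAAANNGAA of the interferon-stimulated response element, searched on both strands, stood in 15 of 25 promoter windows of the 21 rising interferon genes with a window (60.0%), against 8.56% of all windows. Isg15, which encodes a ubiquitin-like modifier, is shown because its window holds 3 matches. It was chosen after its values were seen: 6.56, 6.16, 5.74 and 5.68 CPM in OG CD44+ libraries, against 3.97, 2.92, 3.53 and 3.399 CPM in OG CD44- libraries (log2 fold change 0.80 ± 0.16). Its 250 bases before the start (chr4:156200819-156201068, minus strand, GRCm38.p6, RefSeq) follow, with the matches in capitals:

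Isg15: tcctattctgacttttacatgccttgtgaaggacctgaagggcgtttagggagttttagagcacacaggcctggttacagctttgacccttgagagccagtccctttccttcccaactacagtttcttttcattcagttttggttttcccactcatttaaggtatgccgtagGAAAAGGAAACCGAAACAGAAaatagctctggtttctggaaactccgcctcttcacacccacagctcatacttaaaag

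The 3 matches overlap each other and start 78, 72 and 66 bases before the gene.

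Immediate early genes, which respond within minutes to growth factors and to cell dissociation, rose in 22 of 27 tested, with a median of 0.58, and fell in 1. Fos stood at 501, 421, 433 and 435 CPM in OG CD44+ libraries, against 193, 199, 199 and 202 CPM in OG CD44- libraries (log2 fold change 1.17 ± 0.04). Klf2 and Ier5 rose by 1.41 ± 0.07 and 0.99 ± 0.05, and the one that fell was Fosl1, with -0.57 ± 0.11. No value here separates signalling in the lung from the time and handling of the digest, which was not tested. NF-kappaB feedback genes were mixed, with 10 of 21 higher and 6 lower. With animals 5, 6 and 7 summed, 4 were higher and 3 lower. Of 30 p53 targets and apoptosis regulators 19 rose and 3 fell, with a small median of 0.18. Cdkn1a, the p21 inhibitor of the cell cycle, had 381 to 404 CPM in OG CD44+ and 288 to 298 CPM in OG CD44- libraries (log2 fold change 0.44 ± 0.03). Cdkn2b, another inhibitor of the cycle, rose by 0.89 ± 0.06. Genes of the cycle itself were also higher: 18 of 20 in S phase and 19 of 24 in G2 and M phase rose and none fell, with medians of 0.51 and 0.60. Top2a, a topoisomerase of dividing cells, stood at 40.99, 38.8, 35.6 and 34.8 CPM in OG CD44+ libraries, against 26.4, 20.2, 21.2 and 19.9 CPM in OG CD44- libraries (log2 fold change 0.78 ± 0.07), and Mcm3, a helicase subunit of DNA replication, at 16.7, 16.1, 17.6 and 14.3 CPM in OG CD44+ libraries, against 11.4, 8.92, 9.77 and 9.998 CPM in OG CD44- libraries (log2 fold change 0.69 ± 0.10). These levels are low, and with animals 5, 6 and 7 summed 12 genes of S phase and 13 of G2 and M phase were called higher.

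Most genes of the proteasome and of the cytosolic chaperones were lower in OG CD44+ cells, with similar medians. Log2 fold changes ran from -0.61 to 0.18 for the proteasome and from -0.94 to 0.56 for the chaperones. Of 31 proteasome subunits 28 fell and 1 rose, with a median log2 fold change of -0.41. Psmd1, a scaffold of the regulatory particle (gene 70247, chromosome 1, 86064619 to 86139295), stood at 261, 275, 270.4 and 281 CPM in OG CD44+ libraries, against 371, 385, 389 and 373 CPM in OG CD44- libraries (log2 fold change -0.48 ± 0.03, adjusted p = 6.69e-16). Psma7 and Psma1 of the core particle fell by 0.50 and 0.45, Psmd3 and Psmd12 of the lid by 0.41 and 0.49, and Psmd8 alone rose, by 0.18 ± 0.03. Without animal 3, 29 fell, and with animals 5, 6 and 7 summed 27 did. Of 17 cytosolic heat shock chaperones and cochaperones 13 fell and 2 rose, with a median of -0.45. Hspb1, a small heat shock protein (gene 15507, chromosome 5, 135887919 to 135889563), stood at 256, 249, 253 and 270.4 CPM in OG CD44+ libraries, against 477, 497, 479.8 and 527 CPM in OG CD44- libraries (log2 fold change -0.94 ± 0.03, adjusted p = 5.41e-25). Hsph1, Hspb8, Hsp90aa1 and the mitochondrial chaperonin Hspd1 fell by 0.83, 0.75, 0.63 and 0.69. The inducible Hsp70 genes were the exceptions: Hspa1a rose, with 769, 699, 712 and 740.2 CPM in OG CD44+ libraries, against 499.7, 499, 494 and 486 CPM in OG CD44- libraries (log2 fold change 0.56 ± 0.03), and Hspa1b by 0.09 ± 0.03, which had an adjusted p of 0.117 without animal 7 and of 0.242 with animals 5, 6 and 7 summed. Hspa1a and Hspa1b are near-identical copies, so the split of reads between them is uncertain.

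Genes of the integrated stress response fell with them. ATF4 is the transcription factor of that response and induces genes for amino acid synthesis, uptake and charging of tRNA. Of 25 ATF4 targets and amino acid supply genes 18 fell and 1 rose, with a median of -0.37. Asns, asparagine synthetase (gene 27053, chromosome 6, 7675165 to 7693209), stood at 62.8, 71.2, 69.2 and 70.8 CPM in OG CD44+ libraries, against 113, 127, 121 and 121 CPM in OG CD44- libraries (log2 fold change -0.81 ± 0.04, adjusted p = 1.06e-19). Mthfd2, of mitochondrial one-carbon metabolism, stood at 29.4, 28.4, 34.003 and 29.96 CPM in OG CD44+ libraries, against 56.9, 66.2, 60.4 and 58.3 CPM in OG CD44- libraries (log2 fold change -0.99 ± 0.06). Slc7a11 and Slc3a2, the chains of the cystine importer, fell by 0.69 and 0.63 and the factor Atf5 by 0.78, while Cebpb rose by 0.26 ± 0.05. Of 20 cytosolic aminoacyl tRNA synthetases 13 fell, Eprs, Aars and Sars by 0.61, 0.47 and 0.48, and 2 rose, Qars most, with 0.28 ± 0.04. Of 24 ER chaperones and genes of the unfolded protein response 13 fell and 2 rose, with a median of -0.13. Ern1, the IRE1 sensor, stood at 74.1, 71.5, 72.95 and 75.3 CPM in OG CD44+ libraries, against 103, 103, 105 and 104 CPM in OG CD44- libraries (log2 fold change -0.49 ± 0.04), and Hspa5, the BiP chaperone, had the smaller difference of -0.23 ± 0.03. Calr, which encodes the chaperone calreticulin, rose by 0.19. Of 25 NRF2 targets and glutathione genes 17 fell and 3 rose. NRF2 is the factor that oxidants release to induce antioxidant genes. Srxn1, a sulfiredoxin, stood at 413, 443, 456 and 450.0 CPM in OG CD44+ libraries, against 669.8, 761, 744 and 756 CPM in OG CD44- libraries (log2 fold change -0.73 ± 0.03), and Gclm and Gclc, the subunits that start glutathione synthesis, fell by 0.62 and 0.42. Of the members that rose, Gstm2, a glutathione transferase, had a log2 fold change of 1.16 ± 0.10.

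Promoter windows of these falling genes were searched on both strands for the cores of the elements their factors are known for. The ATF4, chaperone and NRF2 lists, like the YAP and interferon lists above, hold genes known for those factors. Their shares therefore describe the lists and not the difference between the sorts, and members that were not called were not searched. TGATGNAA, the ATF4 core, stood in 6 of 19 windows of the 16 falling ATF4 genes with one (31.6%, against 3.97% of all windows), in Asns, Chac1, Slc1a4, Slc7a11, Trib3 and Vldlr. GAANNTTC, a heat shock core, stood in 8 of 12 windows of 8 falling chaperones (66.7%, against 7.86%) and in 1 of 24 windows of 22 falling proteasome subunits. Windows of Hspd1 and Hspe1 overlap, as do those of Hsph1, so a site can be counted more than once. TGACNNNGC, the antioxidant response core, stood in 6 of 20 windows of 13 falling NRF2 genes (30.0%, against 12.4%) and in 4 of the 24 proteasome windows (16.7%). Slc7a11 (chr3:50443614-50443863, minus strand), Hspb1 (chr5:135887669-135887918, plus strand) and Gclm (chr3:122245307-122245556, plus strand) are shown as a member of each list with its match in the 250 bases before the start (GRCm38.p6, RefSeq, 5′ to 3′ on the gene's strand, matches in capitals):

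Slc7a11: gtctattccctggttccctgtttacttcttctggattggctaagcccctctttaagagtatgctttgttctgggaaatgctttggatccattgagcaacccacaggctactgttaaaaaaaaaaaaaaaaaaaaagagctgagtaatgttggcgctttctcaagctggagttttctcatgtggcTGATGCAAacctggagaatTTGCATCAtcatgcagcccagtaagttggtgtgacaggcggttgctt

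Hspb1: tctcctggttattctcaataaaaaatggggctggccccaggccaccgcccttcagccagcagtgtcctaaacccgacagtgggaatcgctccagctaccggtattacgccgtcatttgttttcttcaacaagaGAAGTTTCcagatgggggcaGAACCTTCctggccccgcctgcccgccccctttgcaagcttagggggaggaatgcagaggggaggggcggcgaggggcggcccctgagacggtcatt

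Gclm: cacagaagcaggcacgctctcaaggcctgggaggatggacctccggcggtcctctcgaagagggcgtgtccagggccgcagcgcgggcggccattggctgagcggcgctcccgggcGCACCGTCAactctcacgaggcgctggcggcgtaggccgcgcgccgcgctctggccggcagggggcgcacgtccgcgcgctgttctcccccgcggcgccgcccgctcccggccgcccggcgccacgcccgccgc

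The matches start 66 and 47 bases before Slc7a11, 117 and 97 before Hspb1 and 134 before Gclm. In none of these windows, nor in those of Ccn1 and Isg15, did matches of different motifs overlap. The Hspb1 window also holds a TEAD core and the Ccn1 window an antioxidant response core, which are not in capitals.

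**Figure D3:**
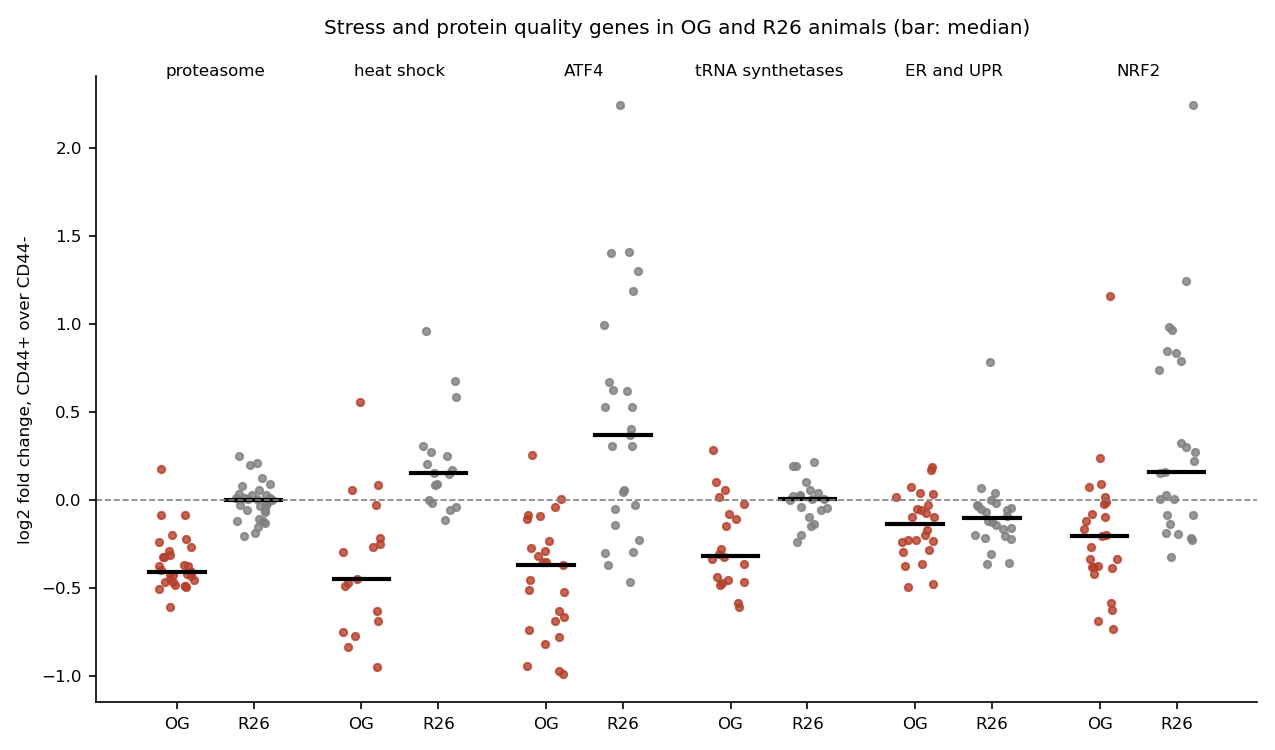
Log2 fold change, CD44+ over CD44-, of each tested member of 6 stress and protein quality lists in OG animals (left of each pair) and R26 animals (right), with a bar at the median and a dashed line at 0. The proteasome medians are -0.41 in OG and 0.00 in R26, those of the heat shock chaperones -0.45 and 0.15, and those of the ATF4 genes -0.37 and 0.37.

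Energy metabolism changed gene by gene more than by pathway. Of 24 glycolysis and hypoxia genes 14 rose and 4 fell. Pfkfb3, which sets the level of a glycolytic activator, stood at 78.8, 62.3, 62.9 and 58.04 CPM in OG CD44+ libraries, against 26.8, 24.5, 23.8 and 23.4 CPM in OG CD44- libraries (log2 fold change 1.41 ± 0.06), the lactate carrier Slc16a3 rose by 1.91 ± 0.14 and the enzymes Eno1, Tpi1 and Pkm by 0.65, 0.47 and 0.36. Pgk1, an enzyme of the same chain, was an exception, with 29.8, 28.9, 28.5 and 30.5 CPM in OG CD44+ libraries, against 73.2, 87.4, 82.3 and 97.4 CPM in OG CD44- libraries (log2 fold change -1.53 ± 0.06, adjusted p = 3.49e-23). Eno1, Pgk1 and other glycolytic genes have many processed copies in the genome, which could take reads from them. Fatty acid oxidation and peroxisome genes fell in 11 of 23 and rose in 1, the carnitine transferase Cpt1a with 0.41 ± 0.04. Cat, the catalase gene, fell by 0.79 on the log2 scale, Abcd3 by 0.46 and Acadvl by 0.39. Complex I subunits fell in 10 of 34, a share near that of all genes, and rose in 1, and 6 fell with animals 5, 6 and 7 summed. Lysosome genes were split evenly, 14 of 33 each way (8 higher and 13 lower with animals 5, 6 and 7 summed), with Lipa, the acid lipase gene, at 1.02 ± 0.09 and Psap at 0.78 ± 0.03 against Atp6v1c2 at -1.40 ± 0.06 and Npc1 at -0.498 ± 0.03.

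Markers of other lung cells were higher in the OG CD44+ libraries for some types and not for others. All 19 tested ciliated cell markers rose, with a median log2 fold change of 1.98 and a summed level of 669 to 841 CPM in OG CD44+ and 260 to 272 CPM in OG CD44- libraries. Foxj1, the master factor of motile cilia, stood at 115, 143, 145 and 146 CPM in OG CD44+ libraries, against 34.7, 32.1, 35.1 and 37.1 CPM in OG CD44- libraries (log2 fold change 1.97 ± 0.05), and Dnah5, Dnah6, Hydin, Cfap54 and Cdhr4 of the axoneme and its assembly were among the 15 largest increases. Of 11 club and secretory cell markers 9 rose and 2 fell, with summed levels of 2537 to 3298 CPM in OG CD44+ and 1175 to 1397 CPM in OG CD44- libraries. Scgb1a1, the club cell secretoglobin, stood at 1410.2, 1571, 1720.5 and 1963 CPM in OG CD44+ libraries, against 437, 444, 508 and 541 CPM in OG CD44- libraries (log2 fold change 1.78 ± 0.03). Muc5b and Scgb3a1, a mucin and a secretoglobin of airway secretory cells, had log2 fold changes of 2.92 ± 0.08 and 2.73 ± 0.13. Plasma cell markers rose in 12 of 14, with sums of 2599 to 5589 CPM in OG CD44+ and 835 to 939.7 CPM in OG CD44- libraries. Igkc stood at 31.8 to 60.4 CPM in OG CD44- libraries, and with Igha and Jchain, given next, was a small part of that sum. Most of the OG CD44- sum was thus other members of the list, which include Xbp1, called lower in OG CD44+ cells. Igha, the constant gene of IgA, stood at 2220.1, 672, 779 and 742 CPM in OG CD44+ libraries, against 68.4, 33.4, 36.7 and 35.5 CPM in OG CD44- libraries (log2 fold change 4.57 ± 0.17), the largest difference among genes named by size, and Jchain, which links IgA dimers, at 439, 157, 158 and 162 CPM in OG CD44+ libraries, against 15.6, 8.58, 8.67 and 8.73 CPM in OG CD44- libraries (log2 fold change 4.42 ± 0.14). Animal 3 has by far the highest OG CD44+ value of both. With animals 5, 6 and 7 summed, 7 plasma cell markers were called higher, and the adjusted p of Igha, Jchain and the kappa constant gene Igkc was 0.0777, 0.0714 and 0.0628 with fold changes as large as before.

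Fibroblast and mural cell markers rose in 17 of 19, with a median of 1.11 and sums of 2902 to 4722 CPM in OG CD44+ and 1397 to 1522 CPM in OG CD44- libraries, the highest again in animal 3. Col1a1 stood at 997, 605, 673 and 668 CPM in OG CD44+ libraries, against 278, 305, 297 and 309 CPM in OG CD44- libraries (log2 fold change 1.28 ± 0.19, adjusted p = 0.011), and Des, Acta2 and Postn rose by 1.02 ± 0.11, 0.86 ± 0.09 and 0.83 ± 0.10. With animals 5, 6 and 7 summed, 10 fibroblast and mural markers were called higher and Col1a1 had an adjusted p of 0.0612, and without animal 6 or 7 it had one of 0.0552 or 0.0540. Fn1, the fibronectin gene, which both transitional epithelium and fibroblasts express, stood at 2348, 1685, 1677 and 1658 CPM in OG CD44+ libraries, against 447, 429.9, 440.4 and 432 CPM in OG CD44- libraries, and Axl and the laminins are expressed by fibroblasts as well. How much of the laminin, TGF-beta, PDGF and metalloprotease differences comes from fibroblast RNA was not tested. Endothelial markers went the other way, with 9 of 15 lower and 1 higher and sums of 131 to 159.6 CPM in OG CD44+ and 209 to 218 CPM in OG CD44- libraries. Cdh5, the cadherin of endothelial junctions, stood at 4.23, 2.53, 2.38 and 1.73 CPM in OG CD44+ libraries, against 6.87, 6.43, 8.03 and 7.198 CPM in OG CD44- libraries (log2 fold change -1.41 ± 0.19). Without animal 3, 11 fell. In the summed comparison 3 fell. Among 15 tested macrophage and monocyte markers 5 rose and 4 fell, and their summed level was 1180 to 1309 CPM in OG CD44+ and 5131 to 5864 CPM in OG CD44- libraries, of which Lyz2, an AT2 gene too, was the larger part. Of 10 basal cell markers 3 passed the filter on low counts, and the defining Krt5, Trp63 and Ngfr did not. Their sum, 1146 to 1207 CPM in OG CD44+ and 962 to 1087 CPM in OG CD44- libraries, was nearly all Bcam, an adhesion gene that other epithelia express. Lymphocyte markers summed to 7.43 to 11.8 CPM in OG CD44+ and 5.40 to 6.24 CPM in OG CD44- libraries. None of the marker lists was at 0 as a whole, and Ncr1 and Fcer1a had no count in any of the 8 libraries.

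**Figure D4:**
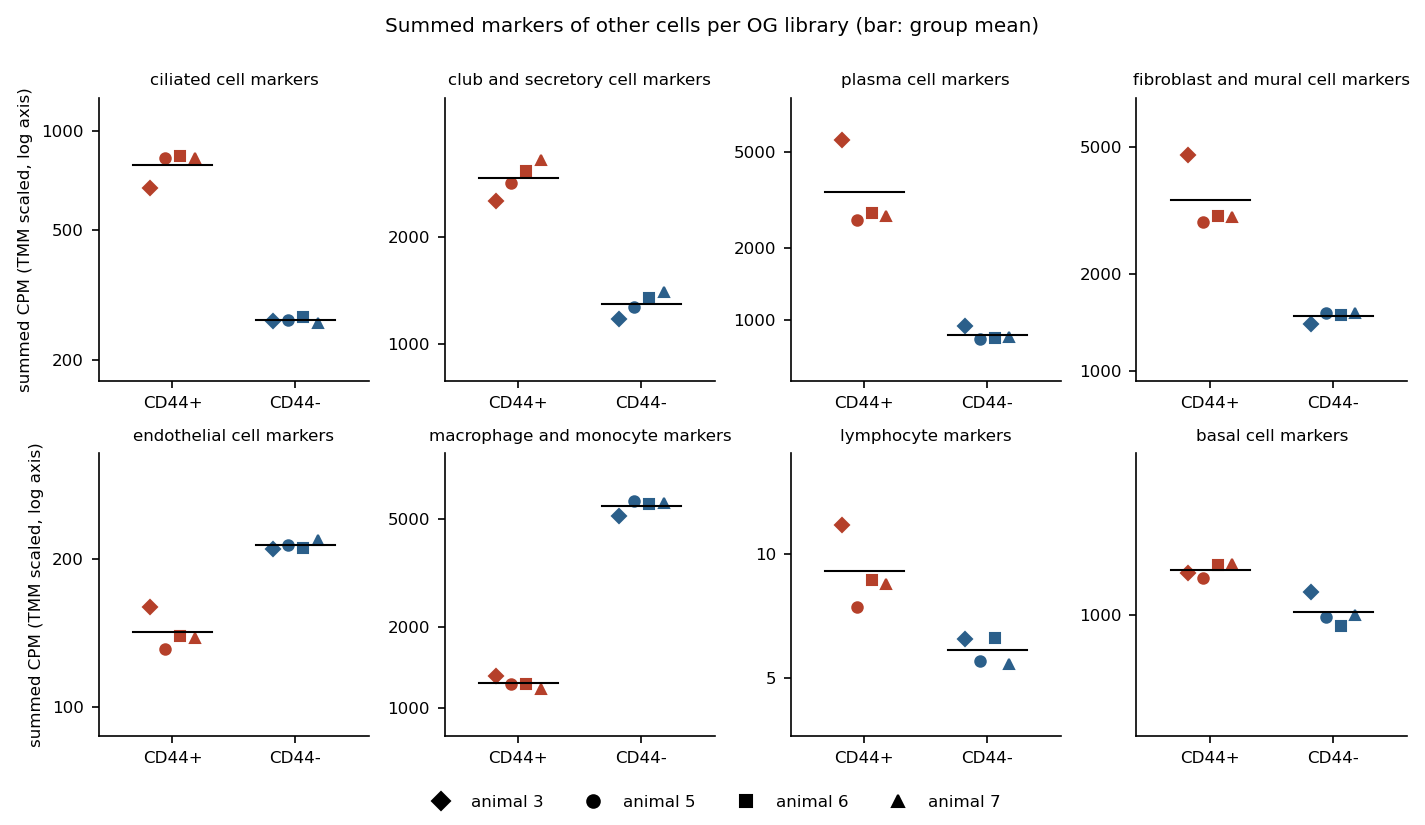
Summed level (CPM after TMM scaling, log axis) of the markers of 8 cell types in each OG library, with the 4 OG CD44+ libraries left of the 4 OG CD44- libraries and points marked by animal. Plasma cell and fibroblast sums of animal 3 lie above those of the other OG CD44+ libraries, 5589 against 2599 to 2777 and 4722 against 2902 to 3034, and the endothelial sums are lower in every OG CD44+ library.

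The difference between CD44+ and CD44- cells was larger or smaller in OG animals than in R26 animals for many genes. Of 15516 genes tested for the difference of the effects, OG minus R26, 1449 (9.34%) were called above 0 and 3525 (22.7%) below 0, with a median of -0.092. That balance depends on the scaling of the libraries: with DESeq2 size factors it was 1953 above and 2832 below. Without any 1 of the R26 animals (1, 2, 7 or 8), 2273 to 2663 were above and 2105 to 2360 below 0, with medians of 0.021 to 0.03, so no direction is read from the balance. Several lists had larger shares below 0 than the 22.7% of all genes, and not only those of stress. Genes of G2 and M phase were below 0 in 23 of 24, and in 18 to 23 over 11 other settings. Their median log2 fold change, CD44+ over CD44-, was 2.23 in R26 cells and 0.60 in OG cells. Complement and coagulation genes were below 0 in 13 of 22 and mesothelial markers in 7 of 7. Protein quality and stress lists also had larger shares. Of 31 proteasome subunits 25 were below 0, of 17 heat shock chaperones 16, of 25 ATF4 genes 20, of 20 tRNA synthetases 13 and of 25 NRF2 genes 17. Over 11 other settings, leaving out each animal among them, the counts below 0 were 17 to 24 for the proteasome, 12 to 16 for the chaperones, 16 to 21 for ATF4 genes, 9 to 13 for the synthetases and 14 to 17 for NRF2 genes. R26 effects come from the fit on all 16 libraries and OG effects from the 8 OG libraries, so their gap is not exactly the tested difference. In R26 cells alone the median log2 fold changes of these lists, CD44+ over CD44-, were 0.00, 0.15, 0.37, 0.01 and 0.16. The list of ER chaperones and the unfolded protein response had no steady direction, with 9 of 24 below 0 and 2 above. Without R26 animal 1, 2, 7 or 8, 3 or 4 of its genes were below 0 and 7 to 10 above. Asns shows the pattern, in CPM scaled over all 16 libraries: it was at 57.4, 66.96, 65.1 and 66.6 in OG CD44+ and 109.7, 124, 118 and 118 in OG CD44- libraries, and at 16.1, 14.02, 19.5 and 18.6 in R26 CD44+ and 13.4, 16.3, 11.97 and 12.01 in R26 CD44- libraries (animals 1, 2, 7 and 8). Both OG groups lie above both R26 groups, the OG CD44+ values lie below the OG CD44- values, and the R26 values of the sorts overlap. The difference of the effects was -1.25 ± 0.12 (adjusted p = 1.96e-08), and for Hspb1 it was -1.21 ± 0.10, for Psmd1 -0.53 ± 0.06 and for Srxn1 -1.63 ± 0.07.

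Differences were ranked only among called genes with a mean log2 CPM of at least 4 over the 8 OG libraries. The largest of these below 0 were those of Tnxb, Slc7a11, Jchain, Igkc, Dcn and Dnm1. Slc7a11 was 315, 372, 365 and 372 CPM in OG CD44+ and 542, 626, 617 and 603 CPM in OG CD44- libraries, and 4.68, 4.16, 6.28 and 3.58 CPM in R26 CD44+ and 1.21, 0.4997, 1.12 and 1.03 CPM in R26 CD44- libraries, a difference of the effects of -3.00 ± 0.17. Tnxb and Dcn, matrix genes of fibroblasts, differed by -3.36 ± 0.12 and -2.72 ± 0.13, and fibroblast markers as a list were below 0 in 15 of 19 and endothelial markers in 18 of 18, so markers of these cells move with this comparison and their part in the other genes was not tested. The largest above 0 among the genes so ranked were Slc7a2, Rgs16, Tgfbi, Muc5b, Gprc5c and Tnfrsf23. Slc7a2, a carrier of arginine and lysine, was 38.3, 31.7, 29.7 and 34.5 CPM in OG CD44+ and 8.88, 12.03, 11.9 and 10.01 CPM in OG CD44- libraries, and 26.7, 42.2, 24.5 and 38.4 CPM in R26 CD44+ and 28, 38.7, 23.9 and 39.4 CPM in R26 CD44- libraries. It was higher in CD44+ cells by 1.71 ± 0.13 in OG and by 0.01 ± 0.09 in R26, with a difference of the effects of 1.63 ± 0.13 (adjusted p = 2.6e-12). Tgfbi was higher in OG CD44+ cells but lower in R26 CD44+ cells, where the log2 fold change was -0.32 ± 0.06, and the difference was 1.51 ± 0.09. Junction genes followed: 9 of 20 tight junction genes and 10 of 18 desmosome and adherens genes were above 0 and 1 of each below, as were 15 of 28 immediate early genes with 3 below. Transitional markers were 8 above and 10 below of 26, so they had no common direction. Cldn4, one of them, was at -1.72 ± 0.11, and Itga2, an integrin outside that list, at -1.94 ± 0.33. In R26 cells Cldn4 and Itga2 rose by 2.94 ± 0.09 and 3.83 ± 0.28, more than the 1.28 ± 0.03 and 1.95 ± 0.05 in OG cells.

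**Figure D5:**
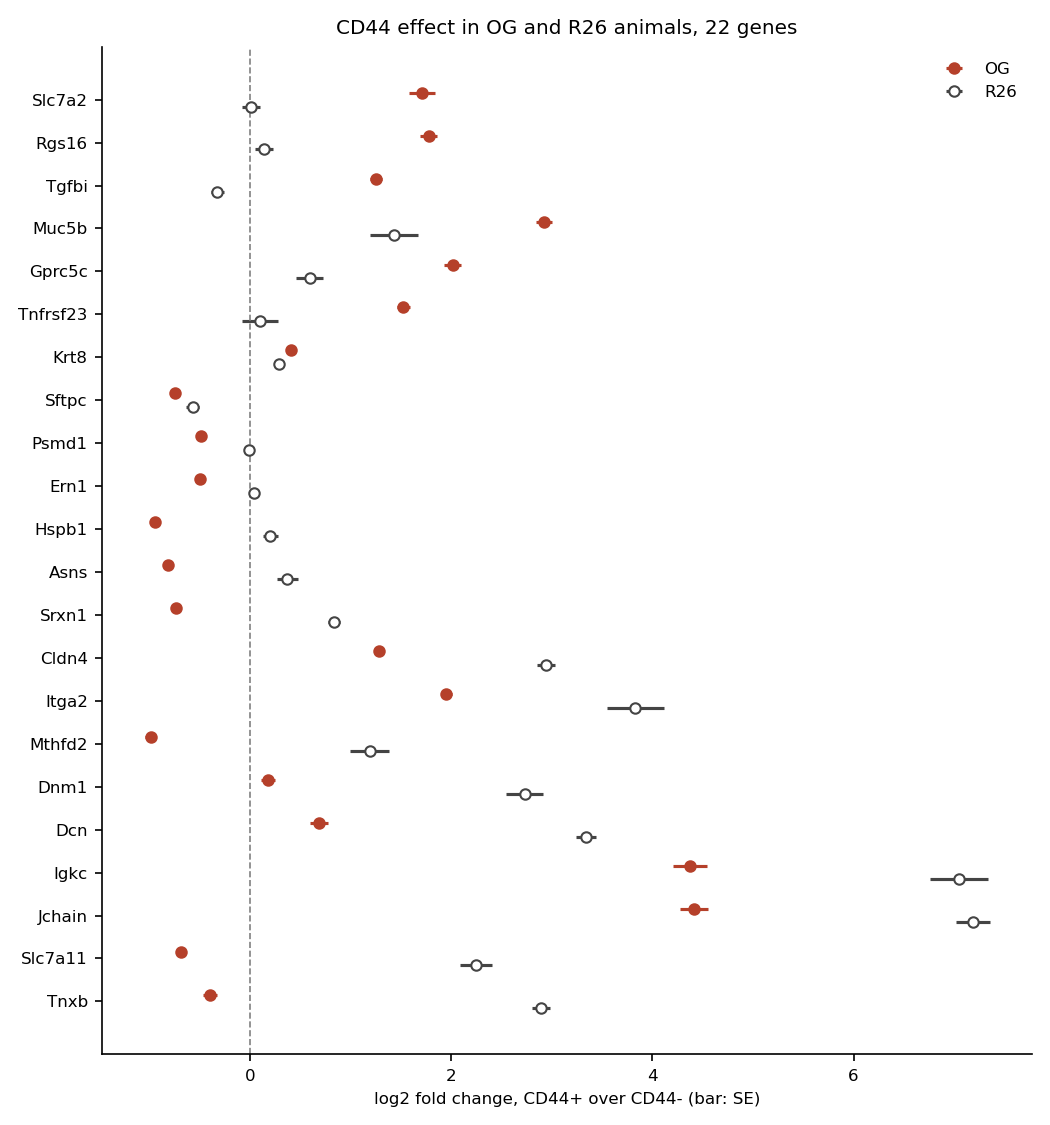
Log2 fold change, CD44+ over CD44-, in OG animals (filled, upper of each pair) and R26 animals (open, lower) for 22 genes, with the SE of each as a bar and a dashed line at 0. Slc7a11, Asns, Hspb1 and Srxn1 lie left of 0 in OG and right of 0 in R26, and Slc7a2, Rgs16 and Tnfrsf23 lie far to the right in OG and near 0 in R26.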

How the data were processed

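RNA was sequenced from sorted AT2 cells with a stranded total RNA kit that removes ribosomal RNA, per the labels' protocols. The authors deposited 1 table of raw counts per gene, whole numbers with no normalization. The submitters' processing notes name Bowtie2 and the build mm10. The counting program, the annotation and the strand setting are not given in the sources used here, so reads of overlapping genes on opposite strands cannot be told apart. Identifiers were matched to RefSeq symbols for 25275 of 27179 (93.0%), and coordinates are those of the RefSeq mm10 (GRCm38) table. The columns name prefix, animal and sort, and were taken to groups by these names.

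The main test was edgeR 4.0.16 in R 4.3.3 on the 8 OG libraries: filterByExpr, TMM scaling, the robust quasi-likelihood F test with the animal number as a block, and Benjamini-Hochberg adjustment over all 14581 genes tested, called under 0.05 with no fold minimum. SEs were derived from F, as the absolute log2 fold change over the root of F. The block follows the animal number in the column names. Deviations of same-numbered libraries from their group means correlated weakly, at 0.116, 0.039, 0.019 and 0.07 for animals 3, 5, 6 and 7. Libraries of different numbers correlated at -0.088 to 0.044, the highest being OG CD44+ of animal 6 with OG CD44- of animal 7. The pairing therefore rests on the column names. The difference of the CD44 effects was tested on all 16 libraries with the 8 animals as a block. On simulated data with 200 changed genes and independent animals both fits found nearly all the changes put in. In these data far more genes differ and the libraries may not be independent, so the simulation cannot show the error rates here. Of the labels, only the animal numbers and the numbers in the sample titles bear on whether samples came from separate mice. The floor of 3 counts allows for counting error alone, as the labels name no molecular identifiers.

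The comparison, the 66 gene lists and the tests were chosen with earlier results of these data known. Genes are named by rule: the sorting antigens and Sftpc, the 15 largest and 15 smallest log2 fold changes among called genes with a mean log2 CPM of at least 4 and groups that do not overlap, up to 5 members per list and direction by adjusted p with members in the minority direction, and the 6 largest differences each way between OG and R26. Predicted genes, pseudogenes and immunoglobulin segments other than constant genes were passed over there. The differences between OG and R26 were ranked only among called genes with that minimum mean level, taken over the OG libraries. Isg15, Foxj1, Col1a1, Ager, Igkv19-93, the basal cell markers at low counts and the members listed for a promoter match were chosen after their values were seen. Not every gene the rule takes is printed. Promoter windows are RefSeq's 250 bases before to 50 after each start. Alternatives were DESeq2 1.42.0 size factors and Wald test, upper-quartile scaling, limma 3.58.1 voom, other filters, no replicate block, all 16 libraries, a 1.5-fold minimum and leaving out each animal. Summing animals 5, 6 and 7 was added after seeing the data. Some genes are not reported here.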

Additional observations from a re-analysis of the deposited data

Results flagged for a closer look

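In 20 of 122 groups of 4 libraries examined, 1 library lay far from the other 3, and in 17 of the 20 it was that of animal 3. Chance gives about 1 in 20 groups. For genes and marker sums of other cells, the gap between the outlying library and its nearest neighbour, as a share of the group's range, was 0.93 for Igha, 0.98 for Jchain, 0.94 for Ptprc, 0.96 for Fn1, 0.93 for the fibroblast and mural sum and 0.94 for the plasma cell sum, each with animal 3 highest in OG CD44+ cells. It was 0.93 for Foxj1 and 0.92 for the ciliated sum, each with animal 3 lowest in OG CD44+ cells. In OG CD44- cells animal 3 was also the highest for Igha (0.91), Jchain (0.98), Tgfbi (0.89) and the plasma cell sum (0.89). Animal 3 was highest in OG CD44+ cells for Cxcl2 (0.85), Fos (0.83) and Il33 (0.96), and lowest in OG CD44- cells for Acoxl (0.83) and Ccn2 (0.91). The others were Ccn1, lowest in OG CD44+ animal 5 (0.84), Krt19, lowest in OG CD44- animal 7 (0.91), and Ptprc, lowest in OG CD44- animal 6 (0.87).

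The difference between CD44+ and CD44- cells itself differed between OG and R26 animals in edgeR's quasi-likelihood test, as OG minus R26 in log2, for Asns (-1.25), Cldn4 (-1.72), Dcn (-2.72), Hspb1 (-1.21), Itga2 (-1.94), Psmd1 (-0.53), Slc7a11 (-3.00), Srxn1 (-1.63) and Tnxb (-3.36), and in the other direction for Slc7a2 (1.63) and Tgfbi (1.51).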

How the results depend on the processing

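With a 1.5-fold minimum, which leaves small differences out by construction, 1681 genes were higher and 349 lower. Under the other settings run on the 8 or 16 libraries the counts stayed within 1.5 times of 4374 and 4083, and leaving out each animal gave 3847 to 4346 higher and 3471 to 4028 lower. Fitted on all 16 libraries with the block, 44.2% of the called genes were higher, against 51.7% in the 8 libraries. The fit with no replicate block gave 4283 and 3918. For the difference of the CD44 effects the DESeq2 Wald test gave 2087 below 0, and leaving out each animal gave 1121 to 2663 above 0 and 2105 to 3318 below 0. Without R26 animal 1, 2, 7 or 8 the counts above 0 were 2273, 2663, 2321 and 2304 and those below 0 were 2143, 2360, 2165 and 2105, and 51.5% to 53% of called differences were above 0, against 29.1% with all animals, so the balance of directions there is not stable. Among the named genes and the settings run, the direction turned for Ager alone, which was not called and stood at 0.02 without animal 3. Slc1a4 was not called without animal 5 (adjusted p = 0.171) or 6 (0.137) in edgeR, nor Dnm1 without animal 7 (0.161). Of the named genes' calls, 93 were lost with the 1.5-fold minimum, and 13 with animals 5, 6 and 7 summed. The cause was not tested. Depth limits the precision of low genes, such as Ptprc, Cdh5 and Snai1, where few counts stand behind each value.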

Other observations

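Other gene groups differed as well. Aldh1a1, a retinaldehyde dehydrogenase, Cyp2f2 and Cyp2s1, of the cytochrome P450 family, and Gsto1 had log2 fold changes of 1.80 ± 0.04, 1.40 ± 0.03, 1.72 ± 0.04 and 1.52 ± 0.04, and 12 of 21 xenobiotic metabolism enzymes rose and 6 fell. Club cells express Cyp2f2 as well, and the part of the club markers given above was not tested. Of 27 genes of sodium, chloride and fluid transport 16 rose and 8 fell. Sgk1, a kinase that raises sodium channel activity, rose by 1.25 ± 0.06 and the water channel Aqp4 by 2.37 ± 0.14, while Cftr, the chloride channel, had a log2 fold change of -0.94 ± 0.04 and stood at 56.8, 64.99, 62.4 and 63.6 CPM in OG CD44+ libraries, against 109, 126, 124 and 119 CPM in OG CD44- libraries. Among 21 S100 proteins and annexins 15 rose and 3 fell, with Anxa8 at 2.44 ± 0.07 and S100a6 at 0.82 ± 0.03 against S100g at -0.94 ± 0.06. All 10 tested mesenchymal transcription factors and genes rose, 7 with animals 5, 6 and 7 summed, Snai1 by 1.11 ± 0.20 and Zeb1 by 0.74 ± 0.13, beside the fibroblast markers given above.

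Of 17 senescence associated genes 11 rose and 3 fell. Igfbp7, Igfbp5 and Igfbp3, which bind insulin-like growth factors, had log2 fold changes of 1.37 ± 0.04, 1.19 ± 0.04 and 1.70 ± 0.12, and Igfbp6 one of -1.28 ± 0.05. Clock genes were mixed, 7 of 18 higher and 4 lower: Bhlhe40 and Nr1d1 rose by 1.09 ± 0.03 and 0.79 ± 0.09, and Npas2 and Arntl, partners in the activating arm, were at -0.95 ± 0.08 and -0.51 ± 0.07. In cholesterol metabolism the exporters Abca1 and Abcg1 rose by 0.60 ± 0.03 and 1.46 ± 0.13, whereas Pmvk of synthesis was at -0.82 ± 0.04, and 5 of 23 rose and 11 fell.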
